A study of Mus musculus with 16 samples.

Results

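The amino acid response genes of the transcription factor ATF4 were followed in whole mouse kidneys that had lost Hes1. The set has 10 members: Atf4, Ddit3, Trib3, Asns, Chac1, Psat1, Phgdh, Psph, Slc7a11 and Slc7a5. They were chosen by name from knowledge of the pathway, with earlier results of these data known. All 10 were found among the 28971 genes of the count table, and 9 of them were among the 15615 genes with enough reads to be tested. The mutant group had the Pax8-rtTA and TRE-Cre transgenes on a background in which both Hes1 alleles were floxed (Hes1 f/f). The Pax8 promoter drives the doxycycline-dependent activator in tubule epithelium, so Cre acts there and not in every cell of the kidney. These animals are called mutant or Hes1 cKO (conditional knockout), and the other group, called control, were littermates labelled as wild type. All mice of both groups drank doxycycline at 1 mg/mL in water with 5% sucrose for 1 week from 3 weeks of age. RNA of 3 Hes1 cKO and 4 control libraries could be used, each from a whole kidney, and nothing in the labels gives the strain. The titles number the kidneys of a group, but nothing states that each came from its own animal, so the p-values below measure the spread between these samples.

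ATF4 belongs to the integrated stress response. When amino acids run short or unfolded protein builds up, kinases phosphorylate the initiation factor eIF2, most translation slows, and the Atf4 message is translated more. ATF4 then switches on genes that make, import and load amino acids, and the growth kinase complex mTORC1, named in the series title, can raise the same genes without stress. Since much of the control of ATF4 is translational, the level of its message alone does not measure the protein, while the messages of its targets are often read as its output.

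ATF4 binds a composite element known as CARE (C/EBP-ATF response element). RefSeq promoters (GRCm38.p6, 250 bases before to 50 after the start of the gene, 300 bases in all) were found for 9 of the 10 members. They were searched on both strands for the core TGATGNAA, where N is any base. The core was present for 4 of these 9 members, Chac1, Trib3, Asns and Slc7a11, against 3.97% of 32851 promoters of the same length and 4.51% of 27025 symbols. The strict core TGATGCAA, which is contained in the first, was present for 2 members (Chac1 and Slc7a11) and in 0.895% of promoters. The windows of 60 bases that hold these matches are shown because they are the sequence feature that part of the set shares. They are written 5′ to 3′ along the strand of the gene, with the matched core, or its reverse complement, in capitals.
Chac1 (chr2:119351023-119351082, + strand): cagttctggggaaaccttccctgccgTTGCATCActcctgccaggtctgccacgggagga
Trib3 (chr2:152344013-152344072, - strand): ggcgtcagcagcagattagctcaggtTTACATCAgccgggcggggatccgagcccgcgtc
Asns (chr6:7693199-7693258, - strand): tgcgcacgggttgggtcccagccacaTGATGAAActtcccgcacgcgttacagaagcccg
Slc7a11 (chr3:50443646-50443705, - strand): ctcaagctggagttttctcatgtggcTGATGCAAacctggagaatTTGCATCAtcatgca

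The match began 193 bases upstream of the RefSeq start in Chac1 and 23 bases upstream in Asns. In Trib3 it began 14 bases downstream of the start. Slc7a11 held 2 matches that face each other, the first 66 and the second 47 bases upstream. No match was found in the windows of Atf4, Ddit3, Phgdh, Psph and Psat1, which says only that these letters are not in these 300 bases.

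Total counts ranged from 16973931 to 20420422 per library. Levels are given as CPM, the usual scaling of read counts to a common library size, here the TMM effective size that edgeR estimates. Hes1 spanned 17.2 to 19.8 CPM among the mutants and 42.8 to 67.6 CPM among the controls, a log2 fold change of -1.61 (SE 0.16), with an adjusted p of 0.00357 by edgeR's quasi-likelihood test. As checks of the tissue, the proximal tubule receptor gene Lrp2 was at 1568 to 2099 CPM and the thick ascending limb gene Umod at 2622 to 3394 CPM over the 7 libraries. The column names give the genotype but not the sex, and Xist, a transcript of female cells, was high in Hes1 cKO 3, control 3 and control 4 (333 to 367 CPM) and at most 0.371 CPM in the others.

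Levels of the 10 genes differed widely, with the highest 1186-fold above the lowest per length in control. The lowest, Slc7a11, had only 3 to 13 reads per library. To compare genes, CPM was divided by the merged exon length in kilobases (GENCODE M21, GRCm38). In the control kidneys Atf4 was highest, at 34.9 ± 8.09 CPM per kb (SD, n = 4). The serine synthesis genes Phgdh (13.1 ± 0.597) and Psat1 (11.2 ± 1.48) followed, in the same unit and with the same n. Ddit3 (5.68 ± 0.962), Psph (3.85 ± 0.339), Slc7a5 (3.63 ± 0.157) and Asns (2.28 ± 0.409) formed the middle. Chac1 (0.886 ± 0.102), Trib3 (0.518 ± 0.103) and Slc7a11 (0.0294 ± 0.0165) were lowest. Of the neighbours in this order, Phgdh and Psat1 overlapped over the control libraries, as did Psph and Slc7a5, and the other 7 pairs of neighbours did not. In Hes1 cKO the order differed in 1 step, with Slc7a5 (4.61 ± 0.255 CPM per kb, SD, n = 3) above Psph (3.57 ± 0.159). Over the mutant libraries the neighbours Phgdh and Psat1, Ddit3 and Slc7a5, Psph and Asns, and Chac1 and Trib3 overlapped, while Slc7a5 and Psph did not. With the longest transcript as the length, Psat1 (18.3 CPM per kb) came above Phgdh (17.2) in control, and no other member changed its place. The highest was then 917-fold above the lowest.

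**Figure D1:**
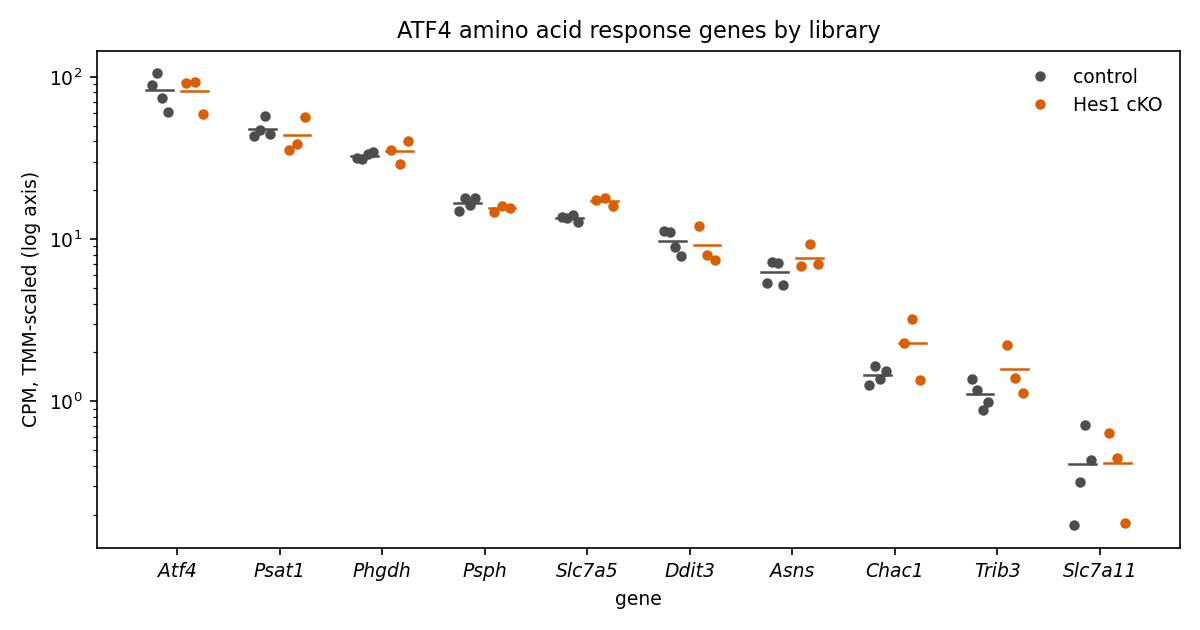
Level of each of the 10 genes in CPM (TMM-scaled, log axis), ordered by the control mean; each point is a library, grey for the 4 controls and orange for the 3 Hes1 cKO, and the short lines are group means. Slc7a5 is the 1 gene whose groups do not overlap, with 16.1 to 17.9 CPM among mutants and 12.7 to 14.05 CPM among controls.

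None of the 9 tested members was called different between Hes1 cKO and control by edgeR's quasi-likelihood test at an adjusted p under 0.05, while 0.339% of the 15615 tested genes were. At an unadjusted p under 0.05 there was 1 member, Slc7a5, where 5.95% of all tested genes passed. DESeq2's Wald test and limma-voom likewise called 0 of the 9, each with 1 at an unadjusted p under 0.05. Of the tested members, 5 had a log2 fold change above 0, as 48.4% of all tested genes did, and 4 below, with a median of 0.093, beside -0.0064 over all tested genes. Slc7a5 was also the 1 member whose groups did not overlap, a state that 7.01% of all tested genes shared. In bulk RNA, fewer cells of a type and less RNA per cell cannot be told apart, and this holds for every value below.

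**Figure D2:**
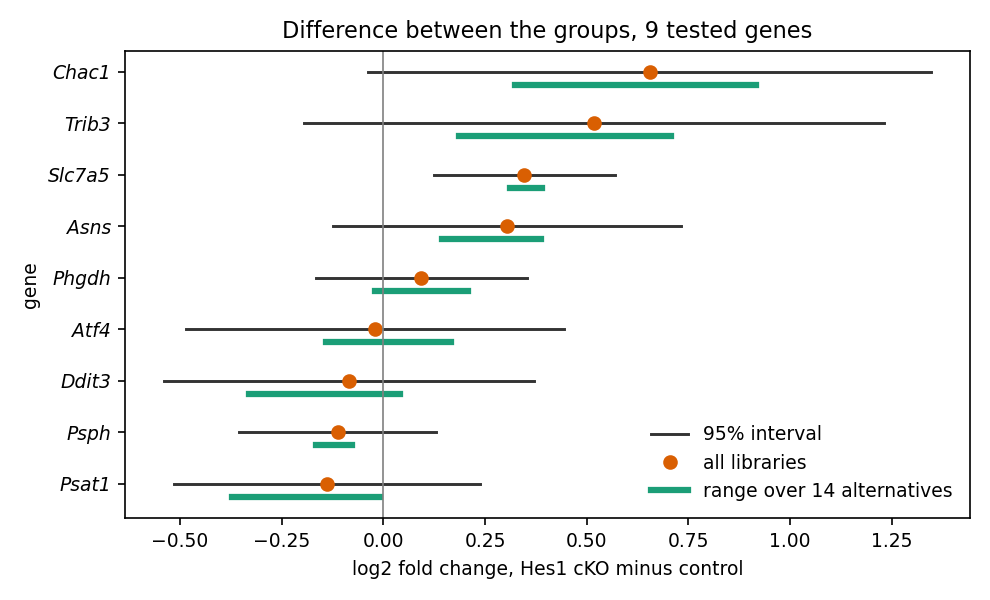
Log2 fold change of Hes1 cKO against control for the 9 tested genes; orange points are the fit with all libraries, black lines its 95% intervals, and green bars the range over 14 other settings. The interval of Slc7a5 runs from 0.12 to 0.57, and those of the other 8 genes include 0.

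The transcription factor and its partners are described first. Atf4 (ENSMUSG00000042406, chr15:80255184-80257541) measured 91.6, 93.4 and 58.6 CPM in the mutant libraries 1, 2 and 3. The control libraries 1, 2, 3 and 4 held 89.3, 105, 74.5 and 60.6 CPM. The groups covered nearly the same range, and the 3 lowest libraries were the 3 with high Xist: Hes1 cKO 3, control 4 and control 3. Group means were 81.2 ± 19.6 CPM for the mutants and 82.3 ± 19.1 CPM for the controls (SD, n = 3 and 4). The log2 fold change was -0.02 (95% interval -0.48 to 0.45, edgeR adjusted p 0.996), and the exact two-sided permutation test, with 35 possible arrangements and log2(CPM + 1) as the value, gave p = 0.943. The sign turned to 0.17 without Hes1 cKO 3, and to 0.12 without control 2. With the Xist level as a covariate the log2 fold change was -0.12 (edgeR adjusted p 0.885).

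Ddit3 (ENSMUSG00000025408, chr10:127290774-127296288) encodes CHOP, a factor that ATF4 induces and that favours cell death under lasting stress. In the mutant libraries 1 to 3 it measured 12.01, 8.01 and 7.47 CPM, and in the control libraries 1 to 4 it measured 11.1, 11.1, 8.89 and 7.81 CPM. The highest and the lowest library were both Hes1 cKO, so the groups overlapped entirely. The log2 fold change was -0.08 (95% interval -0.54 to 0.37, edgeR adjusted p 0.990), and it was 0.04 without Hes1 cKO 3. Exons of Ddit3 share 68 bases with Mars on the opposite strand and 105 bases with a second gene model of the same name, so that some reads may have been placed elsewhere.

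Trib3 (ENSMUSG00000032715, chr2:152337422-152344032) encodes a pseudokinase that binds ATF4 and restrains the response. Its counts were low, between 16 and 42 reads per library. The mutant libraries 1 to 3 held 2.22, 1.38 and 1.12 CPM, and the control libraries 1 to 4 held 1.38, 1.16, 0.878 and 0.983 CPM. Hes1 cKO 1 stood above all other libraries. Hes1 cKO 2 (1.385 CPM) lay just above the highest control (1.377 CPM), and Hes1 cKO 3 lay among the controls. The log2 fold change was 0.52 (95% interval -0.20 to 1.23, edgeR adjusted p 0.938), and it was 0.19 without Hes1 cKO 1.

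The enzymes that make amino acids came next. Asns (ENSMUSG00000029752, chr6:7675169-7693254), asparagine synthetase, is a classical reporter of amino acid shortage. Levels of 6.77, 9.30 and 7.00 CPM in the mutant libraries 1 to 3 compared with 5.33, 7.25, 7.13 and 5.19 CPM in the control libraries 1 to 4. Hes1 cKO 2 was the highest library, and the other mutant libraries lay between the controls. The log2 fold change was 0.30 (95% interval -0.12 to 0.73, edgeR adjusted p 0.938), and 0.14 without Hes1 cKO 2.

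Phgdh, Psat1 and Psph encode the 3 enzymes that turn the glycolytic intermediate 3-phosphoglycerate into serine, in that order. Phgdh (ENSMUSG00000053398, chr3:98313170-98339990) measured 35.2, 29.0 and 40.0 CPM among the mutants, next to 31.4, 31.2, 33.4 and 34.2 CPM among the controls. Psat1 (ENSMUSG00000024640, chr19:15904678-15947337) measured 35.1, 38.8 and 56.5 CPM among the mutants, next to 43.4, 46.7, 57.1 and 44.2 CPM among the controls. Psph (ENSMUSG00000029446, chr5:129765558-129787449) measured 14.7, 16.1 and 15.5 CPM among the mutants, next to 14.8, 17.9, 16.2 and 17.8 CPM among the controls (each in library order). Hes1 cKO 3 was the highest library for Phgdh and lay within 1 CPM of control 3, the highest for Psat1, and the groups overlapped for all 3 enzymes. Their log2 fold changes were 0.09 (95% interval -0.17 to 0.35), -0.14 (-0.52 to 0.24) and -0.11 (-0.35 to 0.13). The edgeR adjusted p-values were 0.974, 0.974 and 0.969. Psat1 was the member most moved by 1 library in this trio, at -0.01 without Hes1 cKO 1 and -0.37 without Hes1 cKO 3, and Phgdh turned to -0.02 without Hes1 cKO 3. Psph shares 452 exonic bases, 10.4% of its own, with Cct6a on the opposite strand.

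Chac1 (ENSMUSG00000027313, chr2:119351229-119354381) encodes an enzyme that breaks down glutathione and is among the most inducible ATF4 targets. It was covered by 22 to 65 reads per library. The mutant libraries 1 to 3 held 2.27, 3.21 and 1.35 CPM, next to 1.26, 1.64, 1.37 and 1.53 CPM for the control libraries 1 to 4. Of the mutant libraries, 1 and 2 lay above every control and 3 lay among them. The means were 2.28 ± 0.931 CPM (SD, n = 3) and 1.45 ± 0.168 CPM (SD, n = 4). Chac1 had the largest log2 fold change of the set, 0.66 (95% interval -0.04 to 1.35, edgeR adjusted p 0.862), which was 0.32 without Hes1 cKO 2 and 0.92 without Hes1 cKO 3. The exact permutation test gave p = 0.143.

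Of the transporters, Slc7a5 (ENSMUSG00000040010, chr8:121881150-121907694) encodes LAT1, which exchanges large neutral amino acids such as leucine, and leucine activates mTORC1. Mutant libraries 1 to 3 measured 17.4, 17.9 and 16.1 CPM, whereas control libraries 1 to 4 measured 13.7, 13.5, 14.05 and 12.7 CPM. Every Hes1 cKO library was above every control library. Group means of 17.1 ± 0.947 CPM and 13.5 ± 0.583 CPM (SD, n = 3 and 4) gave a log2 fold change of 0.35 (SE 0.10, 95% interval 0.12 to 0.57), a fold of 1.27. The unadjusted p was 0.00623, which ranked 187 among the 15615 tested genes, and the edgeR adjusted p was 0.512, so the gene was not called. The exact permutation p of 0.0286 is the smallest that 35 arrangements allow; such tests were run for all 10 members without adjustment. Over 14 other settings the log2 fold change lay between 0.31 and 0.39, with adjusted p-values from 0.447 to 0.9997.

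Slc7a11 (ENSMUSG00000027737, chr3:49892526-50443614) encodes xCT, which imports cystine in exchange for glutamate and so feeds glutathione synthesis. It had 12, 9 and 3 reads in Hes1 cKO 1, 2 and 3, and 3, 6, 13 and 8 reads in control 1 to 4. The groups overlapped entirely, and the gene did not pass the filter on low counts. Without that filter the log2 fold change was 0.04, with a 95% interval from -1.17 to 1.25 (edgeR adjusted p 0.989). The exact permutation test gave p = 0.886.

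The members were not highest in the same library. Atf4, Ddit3, Trib3 and Chac1 were below their own means in Hes1 cKO 3, control 3 and control 4, the libraries with high Xist, and Chac1 was also below its mean in the other controls. Chac1, Asns and Slc7a5 were highest in Hes1 cKO 2, Trib3 and Ddit3 in Hes1 cKO 1, Phgdh in Hes1 cKO 3, Psat1 and Slc7a11 in control 3, and Atf4 and Psph in control 2. Likeness to Atf4 was measured as the root mean square difference of standardised log2(CPM + 1) over the 7 libraries, where 0 is the same pattern. Among members it was smallest for Ddit3 (0.662) and Trib3 (0.927) and largest for Psat1 (1.63) and Phgdh (1.72). Over 14135 other genes with a mean of at least 1 CPM, the 5 nearest to Atf4 were Fgg (0.178), Ifngr1 (0.207), 0610043K17Rik (0.216), Cpsf3l (0.234) and Mid1ip1 (0.235). Fgg, a fibrinogen chain, measured 11.5, 15.4 and 2.35 CPM in mutant libraries 1 to 3, next to 13.5, 26.2, 8.89 and 3.44 CPM in control libraries 1 to 4. Like Atf4, it was lowest in the 3 libraries with high Xist. This likeness follows from the choice of Fgg as the nearest gene and adds nothing to the pattern of Atf4. Whether the sex of the animals has a part in these values was not tested.

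**Figure D3:**
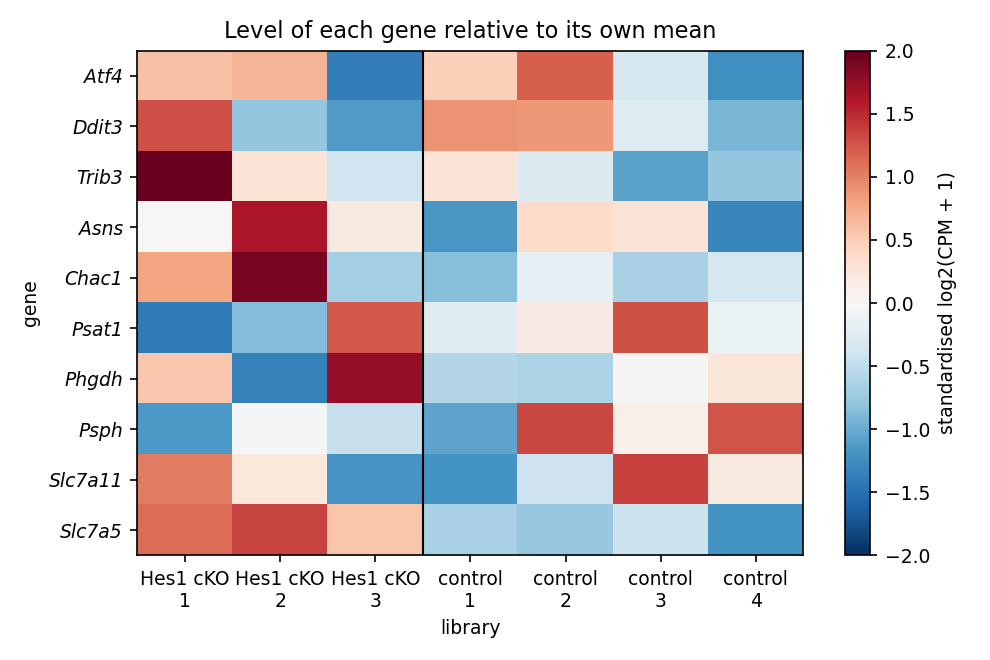
Each of the 10 genes (rows) in each of the 7 libraries (columns), as log2(CPM + 1) centred on the mean of the gene and divided by its SD; red is above and blue below the mean. Only the Slc7a5 row is red in all 3 Hes1 cKO libraries and blue in all 4 controls.

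The steps before and beside ATF4 were read from lists of related genes. The first list held 14 genes, for eIF2, its kinases, its exchange factor and its phosphatase, with Nck1 and Impact added. Of these, 7 were higher, 7 were lower and none was called, and the median difference was -0.01 on the log2 scale. The 2 with the smallest p were the exchange factor subunits Eif2b5 (0.14, edgeR adjusted p 0.927) and Eif2b4 (0.11, 0.961). Of 14 tested regulators and stress targets of ATF4, such as Atf3, Atf5 and Sesn2, none was called, and the median was 0.0017. The lipoprotein receptor gene Vldlr averaged 122 ± 1.93 CPM among the mutants and 139 ± 7.06 CPM among the controls (SD, n = 3 and 4). Its difference was -0.20 on the log2 scale (edgeR adjusted p 0.744). Ddit4, which encodes the mTORC1 inhibitor REDD1, averaged 39.4 ± 10.1 CPM and 58.0 ± 19.8 CPM in the same order. The difference was -0.56 on the log2 scale (edgeR adjusted p 0.840) and -0.29 without control 3, its highest library at 87.4 CPM.

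The 21 aminoacyl-tRNA synthetase and tRNA export genes, many of them known to respond to ATF4, had no call, and their median was -0.01 on the log2 scale. The range was -0.16 (Farsa, edgeR adjusted p 0.942) to 0.33 (Vars, edgeR adjusted p 0.497). Vars, the valine enzyme, averaged 102 ± 1.18 CPM among the mutants and 80.9 ± 8.17 CPM among the controls (SD, n = 3 and 4). Its groups did not overlap, a state that 7.01% of all tested genes shared. Kars did not overlap either but lay lower, at 88.0 to 94.3 CPM among the mutants and 95.1 to 96.4 CPM among the controls. Its difference was -0.06 on the log2 scale (edgeR adjusted p 0.974), and it was named after its values were seen. None of 11 glutathione genes was called either, with the regulator Nfe2l2 at 0.23 (edgeR adjusted p 0.844) and Gclc at -0.27 (0.934). The ER chaperone list reads the ATF6 and XBP1 arms of the unfolded protein response. It had 13 of 15 genes lower and a median of -0.18, again with no call. Over all tested genes, 48.4% had a log2 fold change above 0, and in this list only Atf6 (0.08) and Ern1 (0.07) did. The smallest p-values of the list were those of Pdia4 (-0.34, edgeR adjusted p 0.616) and Hsp90b1 (-0.32, 0.693).

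**Figure D4:**
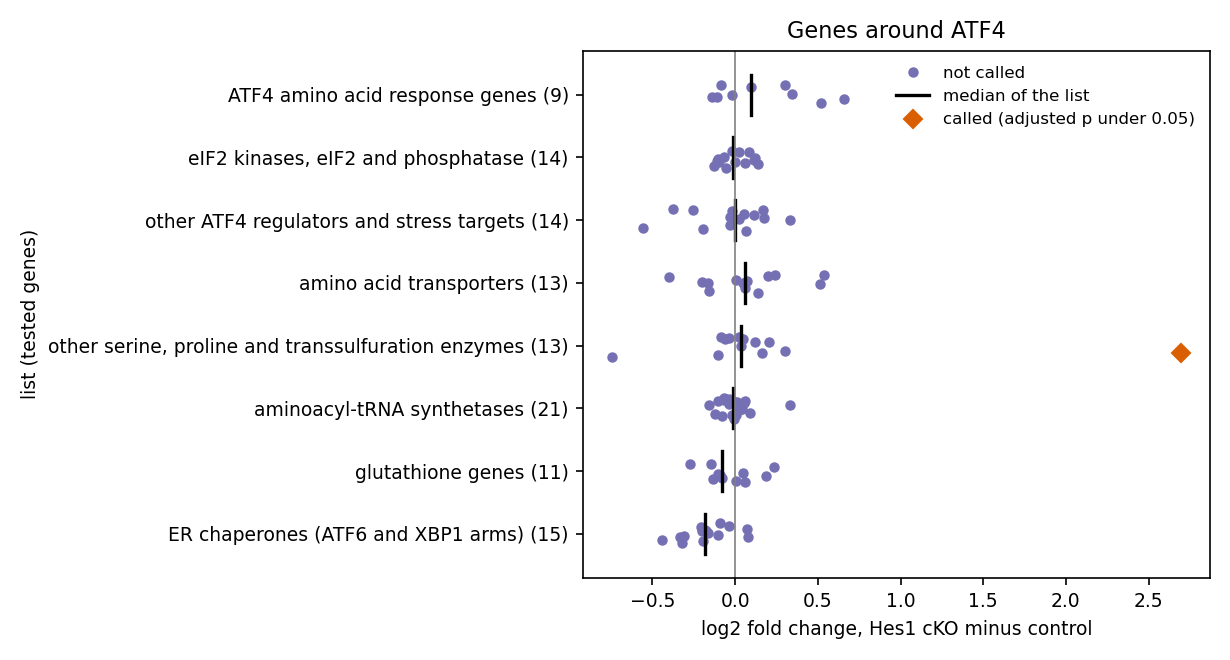
Log2 fold change of Hes1 cKO against control for the tested genes of 8 lists (number of genes in brackets); each point is a gene, black bars are list medians and the orange diamond is the 1 gene called by edgeR, Aldh1l2. List medians lie between -0.18 and 0.093.

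Amino acid transporters beside the members were spread in both directions. Of 13 tested, 9 were higher and 4 lower (median 0.058 on the log2 scale), and none was called by edgeR. Slc7a1, the cationic amino acid transporter CAT1, measured 35.1, 37.4 and 35.1 CPM among the mutants, next to 22.7, 24.5, 27.4 and 26.0 CPM among the controls. All mutant libraries were above all controls, and 7.01% of all tested genes had groups that did not overlap. The difference was 0.51 on the log2 scale (SE 0.09, edgeR adjusted p 0.0928). Of 14 other settings 1 called Slc7a1, DESeq2's Wald test (adjusted p 0.00235). Limma-voom did not (adjusted p 0.0787), and without Hes1 cKO 2 the edgeR adjusted p was 0.499. Slc1a5, the glutamine transporter ASCT2, measured 110, 139 and 90.7 CPM among the mutants, next to 78.5, 91.0, 76.3 and 66.7 CPM among the controls. Its groups met between Hes1 cKO 3 and control 2, and the difference was 0.54 on the log2 scale (SE 0.15, edgeR adjusted p 0.512).

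Slc3a2, the heavy chain that LAT1 and related transporters need to reach the membrane, was on the other side. The mutants held 326, 348 and 363 CPM, next to 428, 372, 421 and 370 CPM for the controls. No mutant library reached the lowest control. The log2 fold change was -0.20 (edgeR adjusted p 0.841). Slc7a8 encodes LAT2, which pairs with the same heavy chain. It measured 273, 262 and 325 CPM in the mutant kidneys, next to 397, 330.5, 418 and 366 CPM in the control kidneys. Here too every mutant library was below every control. The difference was -0.40 on the log2 scale (SE 0.11, unadjusted p 0.00599, edgeR adjusted p 0.512), a smaller p than that of Slc7a5. Slc43a2, another transporter of large neutral amino acids, did not overlap either, and lay higher in the mutants by 0.20 (edgeR adjusted p 0.752). Such a lack of overlap was shared by 7.01% of all tested genes. Slc3a2, the partner of Slc7a5, was named after its values were seen, as were Slc7a8 and Slc43a2.

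**Figure D5:**
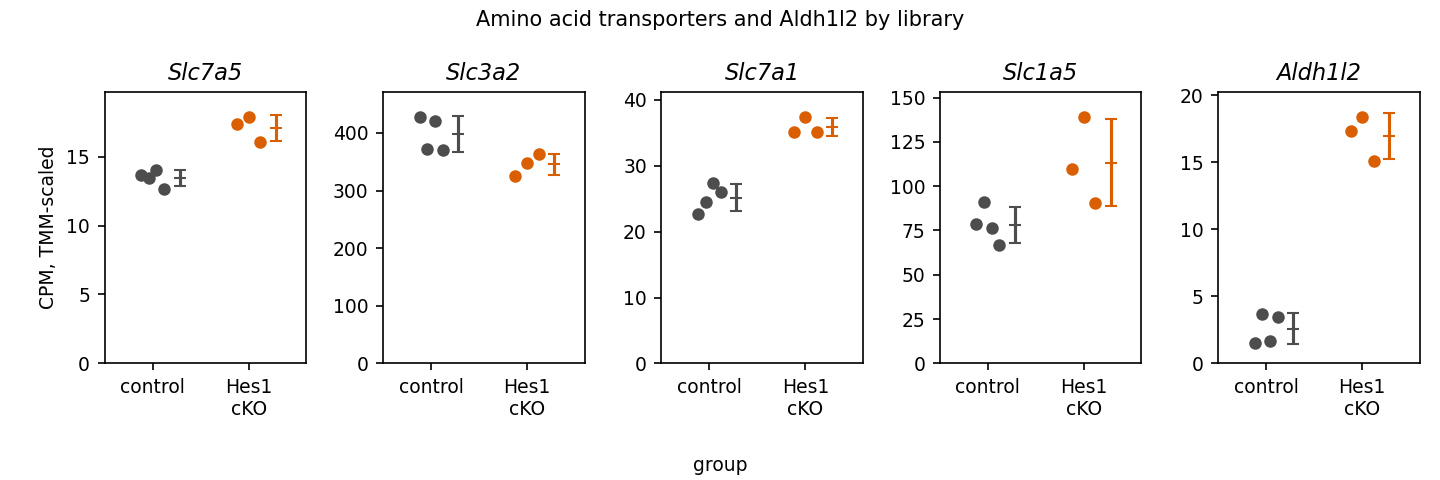
CPM (TMM-scaled, axes from 0) of 4 amino acid transporter genes and of Aldh1l2; points are libraries, and the bars beside them are mean ± SD of 4 controls (grey) and 3 Hes1 cKO (orange). Slc7a5, Slc7a1 and Aldh1l2 lie higher and Slc3a2 lower in Hes1 cKO with no overlap, a state that 7.01% of all tested genes shared. EdgeR's call at an adjusted p under 0.05 was made for Aldh1l2 alone among these 5. DESeq2's Wald test also called Slc7a1, as 1 of 14 other settings.

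Of 13 tested enzymes of serine, proline and sulfur amino acid metabolism outside the set, 1 was called, beside 0.339% of all tested genes. Aldh1l2, a mitochondrial folate enzyme that is listed among ATF4 targets, measured 17.4, 18.4 and 15.1 CPM among the mutants, next to 1.55, 3.71, 1.70 and 3.44 CPM among the controls. It rose by 2.70 on the log2 scale (SE 0.29, edgeR adjusted p 0.0041). The other 12 had a range from -0.75 to 0.30, and the smallest p among them was that of the glutamine synthetase gene Glul (0.21, edgeR adjusted p 0.934). Among the 9 tested members 0 were called, which is near the share over all tested genes.

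Cell type markers moved between the groups too. The marker lists, like the members, were chosen with earlier results of these data known. Their counts are therefore a description and not independent support. Each sum below takes in every counted gene of a list, tested or not. All 10 intercalated cell markers were higher in Hes1 cKO. Of these, 8 were called by edgeR, beside 0.339% of all tested genes. All 10 had an unadjusted edgeR p under 0.05, beside 5.95% of all tested genes. Their summed level was 1424 to 1543 CPM against 522 to 681 CPM in control. Of 9 tested principal cell markers 7 were lower, 5 of these at an unadjusted p under 0.05, and 1 was called. That list had summed levels of 817 to 1269 CPM in Hes1 cKO and 1288 to 1941 CPM in control. Summed proximal tubule markers (12142 to 13808 CPM against 12078 to 15813 CPM) and immune markers (64.2 to 83.2 CPM against 60.6 to 83.5 CPM) overlapped. In these lists 8 of 10 and 4 of 5 tested genes were lower, and none was called by edgeR or had an unadjusted p under 0.05. Of 8 thick ascending limb and distal tubule markers 7 were lower (median -0.24 on the log2 scale), with 2 at an unadjusted p under 0.05 and 0 called, and their sum was 5591 to 6139 CPM against 5555 to 6913 CPM. Of 8 stroma and endothelium markers 5 were lower, 1 had an unadjusted p under 0.05 and 0 were called. Their sums were 383 to 679 CPM against 462 to 587 CPM. Of 7 tested tubular injury genes 4 were lower, and 0 were called or had an unadjusted p under 0.05. All 8 genes of that list summed to 563 to 861 CPM among the mutants and 827 to 1555 CPM among the controls. No marker of these lists that is in the table was at 0 in all libraries. The part of a changed cell makeup in the values of Slc7a5, Slc7a1 and Aldh1l2 was not tested.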

How the data were processed

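Total RNA of whole kidneys was sequenced as 150 bp pairs, per the labels' protocols. The authors deposited whole-number read counts per gene without normalization. The submitters' processing notes name FastQC, STAR, DESeq2 and the build mm10 (GRCm38) without roles. The way reads were assigned to genes (program, strand setting, gene models) was not given in the sources used here. Sample titles name 7 Hes1 cKO and 9 control kidneys, while the series text gives these sizes the other way round. Of the deposited counts, 3 mutant and 4 wild type columns were used. Their names match no single title, so library numbers only name columns, and the 9 columns of a second table, whose names show no genotype, were not used.

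With edgeR 4.0.16 in R 4.3.3, low counts were removed by filterByExpr at its default minimum count of 10, and the libraries were scaled by TMM and tested by edgeR's quasi-likelihood test without covariates, with Benjamini-Hochberg adjustment over all 15615 genes. A gene was called at an adjusted p under 0.05. Standard errors come from the F statistic and 95% intervals from its degrees of freedom. The script was tested on simulated data. Alternatives used DESeq2 1.42.0, limma 3.58.1, other scalings and filters, an Xist covariate and each library left out. Named genes are the members, Hes1, Xist, called genes of 7 pathway lists with the 2 of smallest p in each, and the 5 nearest to Atf4. Members and lists were chosen with earlier results of these data known. Reads carry no molecular identifiers. Positions are from GENCODE M21 and promoters from RefSeq, both on GRCm38.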

Additional observations from a re-analysis of the deposited data

How the results depend on the processing

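No member was called under any of 14 alternatives, with adjusted p-values from 0.447 to 0.9998. Of 126 values of the 9 tested members, 119 kept the sign. Leaving out 1 library turned the log2 fold change of Atf4 (range -0.14 to 0.17), Ddit3 (-0.33 to 0.0403) and Phgdh (-0.0199 to 0.21), and scaling by total counts put Atf4 at 0.000652 and the medians of the eIF2 and synthetase lists at 0.0064 and 0.0065. The count of called genes, 53, became 102 (78 higher, 24 lower) without a low-count filter and 127 (95 higher, 32 lower) by DESeq2's Wald test, and 25 (without Hes1 cKO 2) to 47 (without control 2) with 1 library left out, with 27 without Hes1 cKO 1. The causes were not tested. Hes1 and Aldh1l2 were called in all 14. No paired analysis was possible because the columns carry no replicate number of the titles. Depth limits Slc7a11 (3 to 13 reads), Trib3 and Chac1 most.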
